A study of Homo sapiens with 2 samples.

Results

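The MAGE genes and related cancer-testis genes were examined in polyadenylated RNA of U2OS cells, an established human osteosarcoma line. Members were chosen by gene symbol alone: all MAGE, PAGE, XAGE, GAGE and SSX symbols together with CTAG1B, CTAG2, PRAME, NDN and TRO. Of 18083 symbols with a row of their own, 39 were members, and no member symbol was lost for having several rows. They comprised 17 MAGE genes of the A, B and C families, which are known as germline-restricted, 11 genes of the MAGE families known as broadly expressed, and 10 other cancer-testis genes. The remaining one, SSX2IP, begins with the letters of an SSX gene but encodes a centrosomal protein that binds SSX2. It is not counted with the cancer-testis genes. Both libraries, replicates 1 and 2 of the only group, came from cells that grew asynchronously in 0.3 µM aphidicolin, an inhibitor of replicative DNA polymerases, for 18 h. No untreated library was analysed here, so all values are levels and none is a response to the drug. The labels do not state whether the replicates were separate cultures, and the spread between them may be technical.

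MAGE proteins share a MAGE homology domain and bind RING-type ubiquitin ligases, whose activity and choice of substrate they alter. The A, B and C families lie on chromosome X, are normally active in testis and placenta, and are silenced in other adult tissues with DNA methylation at their promoters. Many tumours express them, which made them the first known human tumour antigens seen by T cells. The D, E, F, H and L families, necdin (NDN) and trophinin (TRO) are active in many normal tissues, above all in brain. Within them, MAGEL2, NDN, MAGEE2, MAGED4 and MAGED4B are known from fewer tissues than the rest. PAGE, XAGE, GAGE, SSX, CTAG and PRAME genes encode other antigens with the same pattern of testis and tumour expression.

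The libraries held 13227805 reads in replicate 1 and 13020149 in replicate 2. Levels are in RPKM, which divides a gene's reads by its exonic length and by the size of the library. A gene is called expressed at 1 RPKM or more in both libraries. For a gene with 2 kb of exon that level was 26.5 reads in replicate 1 and 26.04 in replicate 2. Across all listed genes 66.7% were expressed. The labelled origin was checked against markers: 6 of 7 listed mesenchymal and osteoblast markers were expressed, with COL1A1 at 209 RPKM, but the osteocalcin gene BGLAP stood at 0.277 RPKM and SP7 and IBSP were not listed. None of the 6 listed markers of germ cells was expressed, with summed levels of 0.607 RPKM in replicate 1 and 0.719 RPKM in replicate 2. DDX4, the germ cell helicase gene, had 1 read in each library, and DAZL, PRM1, PRM2, TNP1, TDRD9 and TEX101 were not listed. Of the placental markers CGA, PSG1 and CSH1 were not listed, and GCM1 had 6 reads in replicate 1 and 2 in replicate 2. Of the neuronal markers 3 of 5 were expressed, led by SNAP25 at 5.73 ± 0.305 RPKM (SD, n = 2), and of the listed blood cell markers 1 of 4, CD3D at 1.11 RPKM. In bulk RNA a smaller number of expressing cells and less RNA in each cell cannot be told apart.

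Of the 17 listed germline-restricted MAGE genes, 11 were expressed (64.7%), near the 66.7% of all listed genes. The share of listed protein-coding genes was 72.8%. MAGEA4, whose protein is known to bind the ubiquitin ligase RAD18 and is a target of T cell therapies, was the highest. Its levels were 123.5 RPKM in replicate 1 and 120.4 in replicate 2, or 122 ± 2.24 RPKM (SD, n = 2), rank 190 among all listed genes. MAGEA4 alone took 40.3% of the reads of this class in replicate 1 and 39.6% in replicate 2. MAGEA1, the first MAGE gene described as a tumour antigen, had 72.7 and 70.1 RPKM. MAGEB2, an RNA-binding family member, had 62.5 and 62.7 RPKM. These 3 genes were the only ones of the class at 50 RPKM or more, and their levels did not overlap between genes.

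A middle set followed. For all members of at least 10 RPKM the SD was at most 8.79% of the mean. MAGEA12 had 41.2 RPKM in replicate 1 and 41.3 in replicate 2, and MAGEA6 had 30.2 and 30.8 RPKM. MAGEC1, which encodes the tumour antigen CT7, had 17.5 and 17.3 RPKM. MAGEA8, MAGEA10 and MAGEA11, the last of these known as an androgen receptor coactivator, lay close together. MAGEA8 averaged 15.8 ± 1.38 RPKM, MAGEA10 13.02 ± 1.07 and MAGEA11 12.2 ± 0.236 (SD, n = 2 each). The lowest MAGEA8 value (14.8) was above the highest MAGEA10 value (13.8), while MAGEA10 and MAGEA11 overlapped. MAGEB17 with 4.32 and 3.62 RPKM and MAGEA3 with 3.37 and 2.95 RPKM were the lowest expressed genes of the class. For MAGEB17, 25.8% of exonic bases overlap another annotated gene, AC078993.1. For MAGEA10 the share was 16.2%, with MAGEA10-MAGEA5 as the main overlap, and its effect on the level was not measured.

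Below the expressed genes was a wide gap. The other 6 listed genes, MAGEB1, MAGEB3, MAGEB6, MAGEC2, MAGEA2 and MAGEA2B, had at most 5 reads in either library and averaged 0.136 RPKM or less. No germline-restricted gene therefore lay between 0.136 and 3.16 RPKM. MAGEC2, a partner of the TRIM28 ligase, had 1 read in replicate 1 and 2 in replicate 2, whereas MAGEC1 of the same family had 983 and 958 reads. The table holds no gene at 0 reads. RefSeq annotates 9 further protein-coding genes of this class that were not listed: MAGEA9, MAGEA9B, MAGEB4, MAGEB5, MAGEB6B, MAGEB10, MAGEB16, MAGEB18 and MAGEC3. The families differed in how many of their annotated genes were expressed: 8 of 12 MAGEA, 2 of 11 MAGEB and 1 of 3 MAGEC genes. Over the class this was 11 of 26 genes annotated in RefSeq (42.3%). Of the protein-coding genes in GENCODE release 29 it was 56.2%, and 48.7% of those on chromosome X. These shares count genes not listed as not expressed. MAGEA9 and MAGEA9B have the same 250 upstream bases, and reads of such copies may have been dropped or assigned elsewhere, which was not measured.

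**Figure D1:**
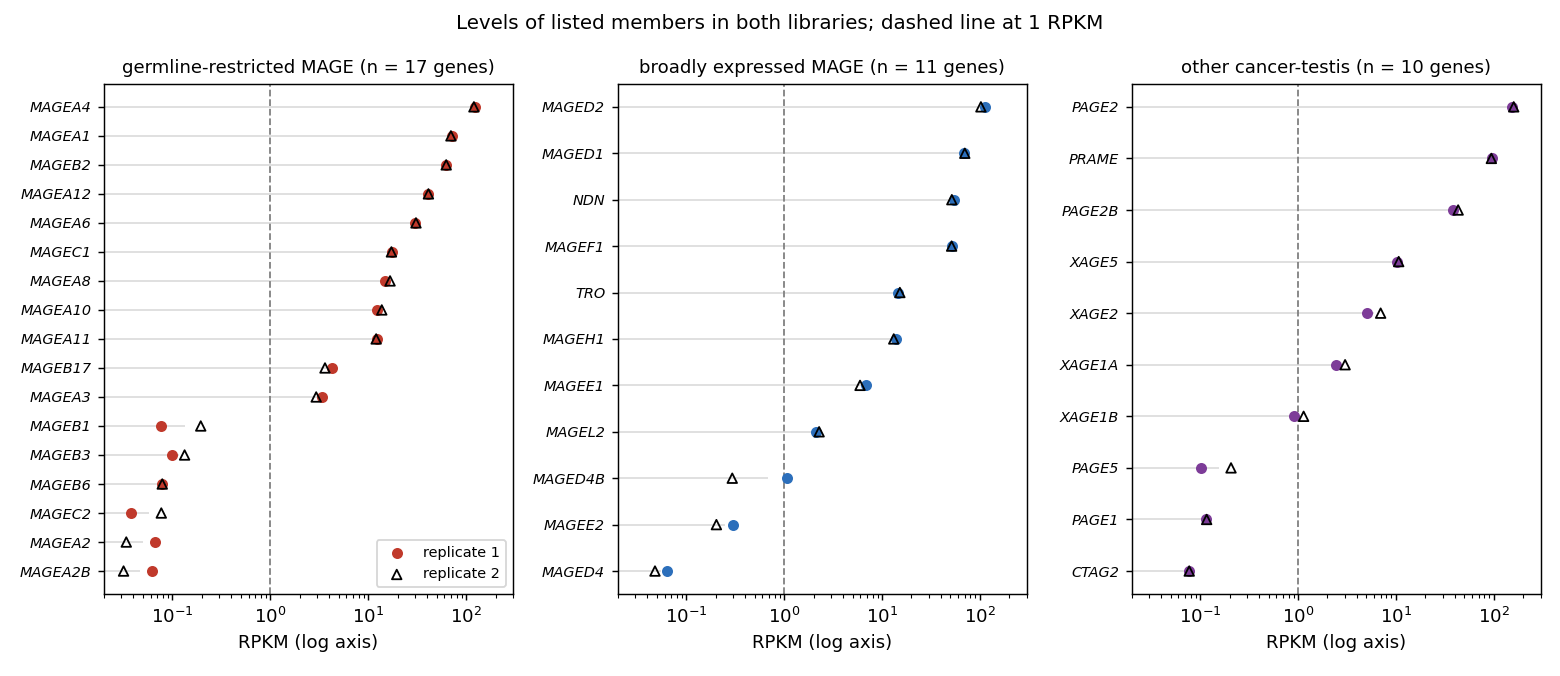
Levels in RPKM (log axis) of the listed genes of each class, with replicate 1 as filled circles and replicate 2 as open triangles; the dashed line marks 1 RPKM. In the germline-restricted class 11 genes lie at or above 3.16 RPKM on average and 6 at or below 0.136, with none between, while the other classes have genes near the line (MAGED4B and XAGE1B).

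All 17 germline-restricted genes lie on chromosome X, and genes above and below the level lay near each other there. In the Xp21 cluster (GRCh38, GENCODE coordinates), MAGEB2 (30215560 to 30220089) was at 62.6 ± 0.164 RPKM. MAGEB3 starts 14.9 kb further on (30230436 to 30237492) and had 3 reads in replicate 1 and 4 in replicate 2. MAGEB1 starts another 13.3 kb on (30243730 to 30252038) and had 2 and 5 reads, and MAGEB4 was not listed. The upstream sequences of MAGEB2 and MAGEB1 are shown because these genes of one cluster lie on either side of the level, MAGEB1 at 0.136 RPKM. They are taken from the 250 bases before the RefSeq start (GRCh38.p14) as far as the GENCODE gene begins, 5′ to 3′ on the gene's strand. CpG dinucleotides, the sites of DNA methylation, are in capitals.
MAGEB2, chrX:30215313-30215559, plus strand: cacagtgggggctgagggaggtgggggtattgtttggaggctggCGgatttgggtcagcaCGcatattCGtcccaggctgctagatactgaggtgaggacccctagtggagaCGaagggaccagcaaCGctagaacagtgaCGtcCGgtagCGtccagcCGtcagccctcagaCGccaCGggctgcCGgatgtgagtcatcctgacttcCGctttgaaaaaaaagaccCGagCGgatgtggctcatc
MAGEB1, chrX:30243481-30243729, plus strand: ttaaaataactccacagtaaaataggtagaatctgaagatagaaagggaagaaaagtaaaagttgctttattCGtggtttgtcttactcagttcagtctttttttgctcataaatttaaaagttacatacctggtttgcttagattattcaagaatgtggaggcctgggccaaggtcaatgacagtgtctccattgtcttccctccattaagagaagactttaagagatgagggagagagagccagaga
The MAGEB2 sequence holds 15 CpG and the MAGEB1 sequence, from 1 of its 2 annotated starts, 1. Other neighbours did not keep this order. Among the Xq28 genes described next, the 250 upstream bases held 5 CpG for the expressed MAGEA12. They held 9 for MAGEA2 and 11 for MAGEA2B, which had at most 2 reads in a library. MAGEA3 and MAGEA6, both expressed, had 15, of which 7 lay in the 192 bases outside both GENCODE genes. Of the 250 bases, 42 lay inside the GENCODE gene for MAGEA2B and none for MAGEA12 and MAGEA2.

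In Xq28, 5 MAGEA genes lie within 71.0 kb, from the start of MAGEA3 (152698752) to the end of MAGEA6 (152769747). In order these were MAGEA3 at 3.16 ± 0.299 RPKM, MAGEA2B at 0.0471, MAGEA12 at 41.2 ± 0.0773, MAGEA2 at 0.0502 and MAGEA6 at 30.5 ± 0.457. The cancer-testis gene CSAG1 had 2 reads in replicate 1 and 1 in replicate 2, and CSAG3 was at 5.35 ± 0.0598 RPKM. MAGEA4 (151912509 to 151925170), MAGEA10 (152133310 to 152138578) and MAGEA1 (153179285 to 153183880), also on chromosome X, were all expressed.

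**Figure D2:**
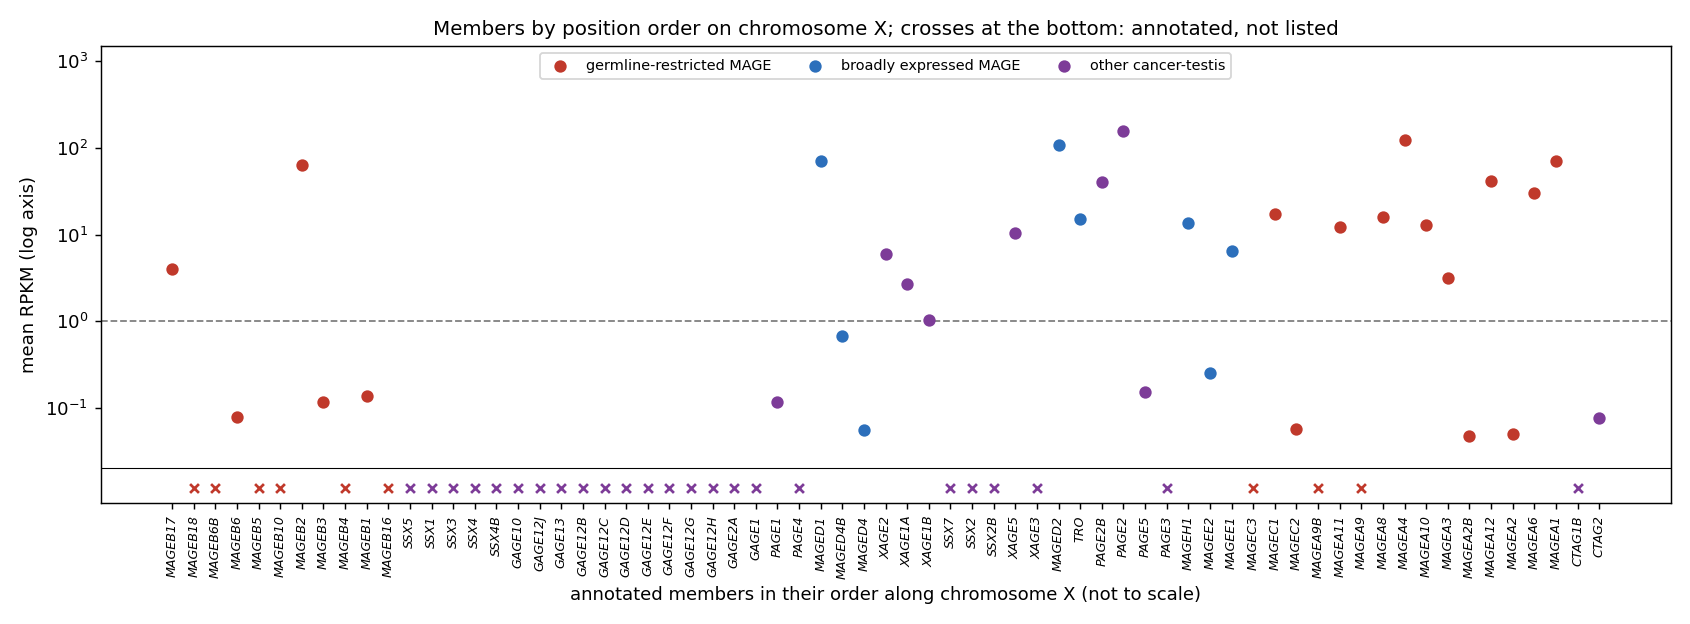
Mean RPKM (log axis) of each annotated chromosome X member in its order along the chromosome, coloured by class; crosses in the bottom strip mark annotated genes that were not listed. The SSX and GAGE genes are all crosses, and the MAGEB and MAGEA runs mix genes above and below the dashed line at 1 RPKM.

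MAGEA3 and MAGEA6 are near-identical copies, and both are known to direct TRIM28 to degrade the energy sensor AMPK. MAGEA6 had 743 reads in replicate 1 and 747 in replicate 2, and MAGEA3 had 79 and 68. The RPKM of MAGEA6 was 8.95 times that of MAGEA3 in replicate 1 and 10.5 times in replicate 2. The upstream sequences of the copies are the same at all 250 bases, so the 192 of them outside both GENCODE genes are printed once, with CpG in capitals.
MAGEA3 (chrX:152698544-152698735, plus strand) and MAGEA6 (chrX:152769748-152769939, minus strand): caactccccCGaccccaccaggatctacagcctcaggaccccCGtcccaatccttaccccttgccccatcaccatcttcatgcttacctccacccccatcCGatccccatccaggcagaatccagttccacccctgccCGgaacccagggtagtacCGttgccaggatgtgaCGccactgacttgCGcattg
Their coding sequences have 942 bases each and differ at 18 of them (98.1% identical), with a longest identical run of 308 bases. The stretch of 90 coding bases with the most differences, positions 434 to 523 from the start codon, shows what sets reads of the copies apart. Differing bases are in capitals, and the sequences come from GENCODE release 29 on GRCh38.
MAGEA3, chrX:152701266-152701355, plus strand: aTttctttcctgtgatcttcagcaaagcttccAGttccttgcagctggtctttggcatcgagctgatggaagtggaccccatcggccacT
MAGEA6, chrX:152767128-152767217, minus strand: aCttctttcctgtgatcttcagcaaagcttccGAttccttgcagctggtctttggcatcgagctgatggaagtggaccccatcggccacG
This stretch holds 4 differences.

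How the authors' counting treated reads that fit several places is not given in the sources used here, so levels of copies are uncertain. Every 50-base window of a gene's transcripts was therefore looked up in the transcripts of all other genes. For MAGEA3 56.5% of windows occurred in another gene and for MAGEA6 53.9%, mostly in each other. Reads that fall in windows of 1 gene alone could not be counted from the table, so how the reads were split between MAGEA3 and MAGEA6 was not tested. MAGEA2 and MAGEA2B, a pair of copies near them, had 2 reads each in replicate 1 and 1 each in replicate 2. Of their windows 96.4% for MAGEA2 and 88.1% for MAGEA2B occurred in another gene, which leaves 91 and 326 windows of their own. Reads of both genes that were assigned elsewhere or dropped were not measured. MAGEA4, MAGEA1, MAGEB2 and MAGEC1 were nearly free of this limit, with 2.69%, 0.662%, 0% and 0.383% of windows in another gene. For MAGEA12 the share was 13.8%.

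Among the 11 broadly expressed MAGE genes 8 were expressed (72.7%), near the 66.7% of all listed genes and the 72.8% of listed protein-coding genes. All 11 annotated genes of the class were listed. MAGED2, which regulates renal salt transport and is mutated in a form of Bartter syndrome, was highest with 112 RPKM in replicate 1 and 102 in replicate 2. MAGED1, a binding partner of the p75 neurotrophin receptor, had 69.4 and 70.1 RPKM. The ratio of MAGED2 to MAGED1 was 1.62 in replicate 1 and 1.46 in replicate 2. TRO, the related trophinin gene, was at 14.9 ± 0.416 RPKM (SD, n = 2). MAGEF1, on chromosome 3 from 184710367 to 184712002, whose protein steers the ligase NSMCE1 to the iron-sulphur factor MMS19, was at 51.7 ± 0.435 RPKM. MAGEH1 was at 13.6 ± 0.596 RPKM and MAGEE1, a component of the dystrophin-associated complex, at 6.38 ± 0.596.

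NDN and MAGEL2 are imprinted neighbours on chromosome 15, expressed from the paternal copy and lost in Prader-Willi syndrome. Necdin restrains growth by binding E2F1, and MAGEL2 activates TRIM27 in retromer recycling. NDN (23685400 to 23687330) had 54.1 RPKM in replicate 1 and 51.7 in replicate 2, against 2.10 and 2.28 RPKM for MAGEL2 (23643549 to 23647867). Both lie on the minus strand, and their lower coordinates are 41.9 kb apart. The ratio of NDN to MAGEL2 was 25.8 in replicate 1 and 22.7 in replicate 2. Of the 11 listed genes of the fixed list for this region 8 were expressed (72.7%), near the 66.7% of all listed genes and the 72.8% of listed protein-coding genes. They were led by CYFIP1 at 23.2 ± 0.139, NIPA2 at 21.9 ± 0.644 and UBE3A at 11.7 ± 0.222. The paternally expressed MKRN3 stood at 1.86 ± 0.166 RPKM and SNRPN at 3.55 ± 0.197. SNURF, which is transcribed together with SNRPN, was at 0.714 ± 0.0997, ATP10A at 0.195 and NPAP1 at 0.0149 RPKM, and SNHG14 was not listed. Several genes of this list, such as NIPA2 and CYFIP1, are not imprinted.

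MAGEE2, MAGED4 and MAGED4B did not reach the level in both libraries. MAGEE2 had 9 reads in replicate 1 and 6 in replicate 2. MAGED4 had 4 and 3 reads, and its copy MAGED4B had 70 and 19. MAGED4B thus stood at 1.07 RPKM in replicate 1 and 0.295 in replicate 2, the lower value below the level. Of the windows of MAGED4B 96.3% occurred in another gene, and of MAGED4 99.0%, so the split of reads between this pair is uncertain.

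Set side by side, the germline-restricted and the broadly expressed MAGE genes that were listed overlapped over nearly their whole range. The germline-restricted class ran from 0.0471 to 122 RPKM with a median of 12.2, and the broadly expressed class from 0.0554 to 107 RPKM with a median of 13.6. The median of all listed genes was 3.53 RPKM. On the log2(RPKM + 1) scale the class medians differed by -0.14, germline-restricted minus broadly expressed, with -0.18 in replicate 1 and -0.12 in replicate 2. This difference has no test, since genes are not replicates, and its sign was not stable: it was 0.66 on the log2(CPM + 1) scale, which does not divide by length, and 0.14 without genes under 0.1 RPKM. With the 9 annotated germline-restricted genes that were not listed taken as 0, it was -3.73. Without MAGEL2, NDN, MAGEE2, MAGED4 and MAGED4B it was -1.13. At least 10 RPKM was reached by 9 of 17 germline-restricted and 6 of 11 broadly expressed genes. The germline-restricted genes took 0.0944% of reads in replicate 1 and 0.0937% in replicate 2, against 0.110% and 0.106% for the broadly expressed genes.

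Of the 10 other listed cancer-testis genes 6 were expressed (60.0%), against 66.7% of all listed genes and 72.8% of listed protein-coding genes. PAGE2 was the highest of all 39 members, with 154.4 RPKM in replicate 1 and 159.7 in replicate 2, rank 128 among all listed genes. PRAME, an antigen that serves as a substrate receptor of CUL2 ubiquitin ligases and represses retinoic acid receptor signalling, had 96.8 and 94.4 RPKM. It lies on chromosome 22 (22547701 to 22559361), the only cancer-testis member here outside chromosome X. PAGE2B, which starts 13.9 kb before PAGE2, had 38.2 and 43.2 RPKM. PAGE2 exceeded it 4.04 times in replicate 1 and 3.69 times in replicate 2. For PAGE2 38.6% of windows and for PAGE2B 52.3% occurred in another gene, so this ratio is uncertain too.

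XAGE5 had 10.3 RPKM in replicate 1 and 10.7 in replicate 2, and XAGE2 had 5.06 and 6.98 RPKM. XAGE1A had 30 reads in replicate 1 and 37 in replicate 2 (2.72 ± 0.432 RPKM). Its copy XAGE1B had 17 and 21 reads and stood at 0.909 and 1.14 RPKM, on either side of the level. Every window of XAGE1A occurred in XAGE1B, so these levels cannot be assigned to one copy with certainty. PAGE1, PAGE5 and CTAG2 had 1 or 2 reads in each library. No SSX and no GAGE gene was listed, out of 8 and 12 annotated, and CTAG1B, which encodes the antigen NY-ESO-1, was not listed either. Over the 34 genes of this class annotated in RefSeq, 17.6% were expressed, against 56.2% of the protein-coding genes in GENCODE. This share counts the 24 genes not listed as not expressed. Many of them are GAGE and SSX genes with near-identical copies, whose reads may have been dropped or assigned elsewhere, which was not measured. SSX2IP, the member by letters only, was at 10.95 ± 0.401 RPKM.

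The libraries gave nearly the same levels for the members. Among expressed members the median SD was 3.05% of the mean, against 3.48% among all expressed genes. An exact binomial test on the reads, 2-sided and adjusted by Benjamini-Hochberg over 17911 genes, called 2 of 39 members, against 0.971% of all genes. Both were lower in replicate 2, a direction called for 0.357% of all genes, and no member was among the 0.614% called higher in replicate 2. It compares these libraries and no conditions, and its error covers counting alone. With 70 reads in the first library and 19 in the second, MAGED4B had a log2 ratio of -1.85 ± 0.37, replicate 2 over 1 (SE from counting; adjusted p = 2.4e-05, exact binomial test). For MAGED2 the reads numbered 4368 in the first library and 3922 in the second, and the same log2 ratio was -0.12 ± 0.03 (adjusted p = 0.0128, exact binomial test). No germline-restricted gene was called, and 1 of them, MAGEA8, had an unadjusted p under 0.05 (0.0438).

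**Figure D3:**
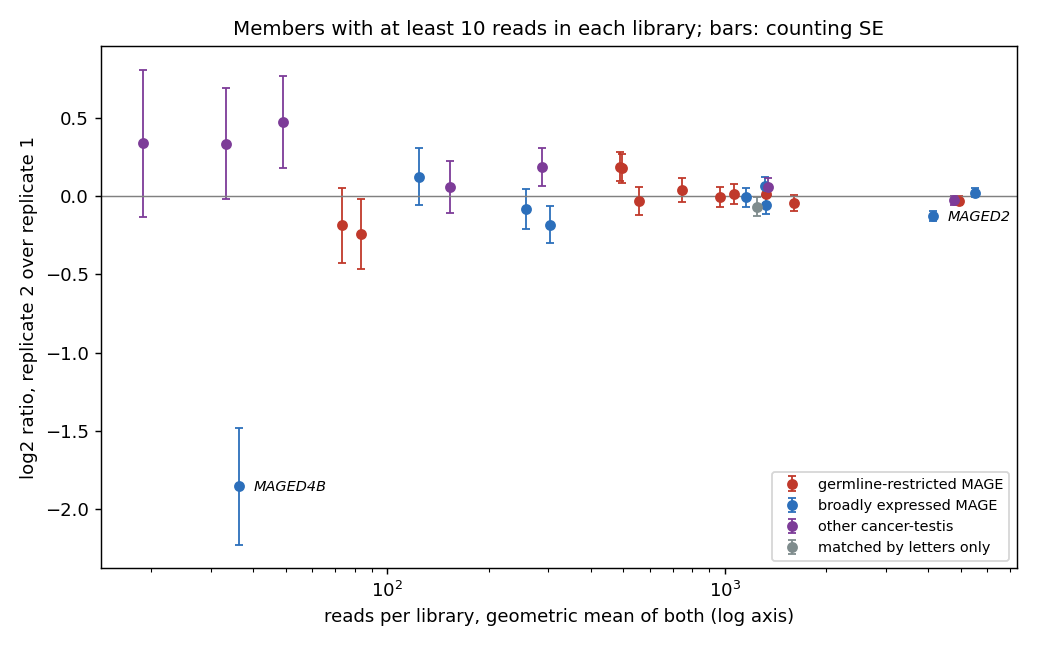
Log2 of replicate 2 over replicate 1 for members with at least 10 reads in each library, against their reads (log axis); bars are the counting SE and colours the classes. MAGED4B at -1.85 lies far from 0, and MAGED2 at -0.12 is the other member called.

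Promoter sequence was described for the 34 listed members that have an entry in the RefSeq table (GRCh38.p14). MAGEA1, MAGEA10, MAGEB17, MAGEH1 and CTAG2 have none. Where a gene had several starts, the one nearest the 5′ end of the GENCODE gene was used, and the start used in these cells was not measured. The 8 expressed germline-restricted genes had a median of 13 CpG in 250 bases, the 6 listed below the level had 7, and the 9 not listed had 5. Among the 8, MAGEA3 and MAGEA6 have the same 250 bases with 15 CpG, which were counted for each gene. Among all listed genes the medians were 21 for expressed genes and 11 for those below the level. The order rests in part on where starts are annotated. In 6 of the 14 listed germline-restricted genes with an entry more than 30 of the 250 bases lay inside the GENCODE gene, among them all 250 for MAGEA11 and 221 for MAGEB3. Without these 6, the medians were 8.5 CpG for 4 expressed genes and 7 for 4 below the level. The ranges overlapped, from 5 to 18 CpG for the expressed germline-restricted genes and from 1 to 11 for those below the level. MAGEA4 and MAGEC2 show the overlap, since each has 6 CpG while MAGEA4 had 5035 reads in replicate 1 and MAGEC2 had 1.
MAGEA4, chrX:151912224-151912473, plus strand: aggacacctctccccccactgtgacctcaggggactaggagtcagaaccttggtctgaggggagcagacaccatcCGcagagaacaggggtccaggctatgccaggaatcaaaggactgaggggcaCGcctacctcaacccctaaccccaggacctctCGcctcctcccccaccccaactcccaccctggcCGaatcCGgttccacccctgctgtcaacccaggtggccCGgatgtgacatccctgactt
MAGEC2, chrX:142205291-142205540, minus strand: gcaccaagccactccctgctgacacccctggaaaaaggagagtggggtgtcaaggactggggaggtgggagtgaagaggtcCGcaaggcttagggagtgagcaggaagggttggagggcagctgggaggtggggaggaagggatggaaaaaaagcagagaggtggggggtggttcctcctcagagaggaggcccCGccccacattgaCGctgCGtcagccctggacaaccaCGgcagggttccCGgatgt
MAGEA4 has 5 annotated starts, and this is the first of them.

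In the broadly expressed class the 7 expressed genes with an entry had a median of 8 CpG, from 4 for TRO to 30 for NDN, and the 3 below the level had 16. Of these windows, 250 bases for TRO, 146 for MAGED2, 69 for MAGED1 and 65 for MAGED4 lay inside the GENCODE gene. Whether the classes differ in this order was not tested. The expressed cancer-testis genes of the other families had a median of 9.5 CpG and those not listed 8. Motifs were searched on both strands in the same 250 bases. CCGGAA is a form of the site bound by ETS factors, and other forms were not searched. The letters CCGGAT, present in the printed sequences of MAGEB2, MAGEA4 and MAGEC2, were therefore not counted. CCGGAA occurred in 2 of 8 expressed germline-restricted genes, MAGEA3 and MAGEA6, against 25.99% of all expressed genes. These 2 copies have the same 250 upstream bases, so their matches are 1 sequence counted for each gene. The motif occurred in 1 of 6 listed below the level (MAGEB6), against 11.66% of all listed genes below it. It occurred in none of 9 that were not listed, and in 14.8% of all promoters. GGGCGG, the GC box bound by SP1, occurred in 7 of 23 annotated germline-restricted and 7 of 10 broadly expressed genes, against 42.3% of all promoters. Among genes above the level it occurred in 3 of 8 germline-restricted and 5 of 7 broadly expressed genes. That compares with 68.7% of all expressed genes, so the broadly expressed class was near that share. The E-box CACGTG, whose letters read the same on both strands, occurred in none of the genes of these classes and in 5 of 31 other cancer-testis genes, against 6.48% of all promoters. None of the motifs contains another, though matches side by side may share bases. A match describes letters only, and no methylation was measured.

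**Figure D4:**
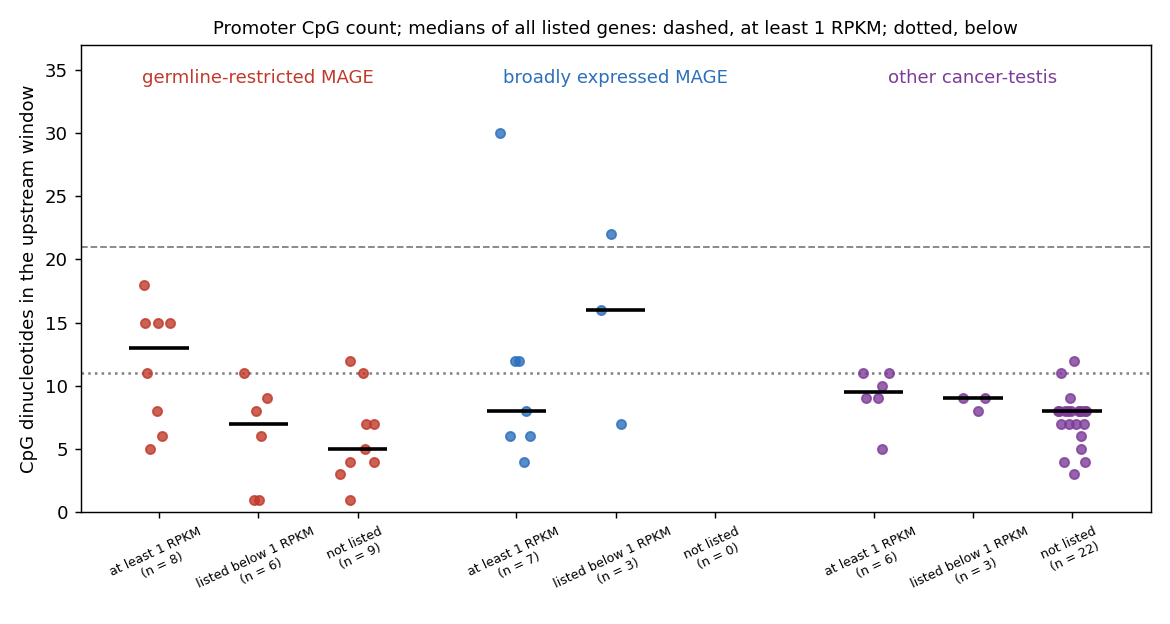
CpG dinucleotides in the 250 bases upstream of the annotated start, for annotated members by class and level; each point is a gene and black bars are medians. Expressed germline-restricted genes have a median of 13, those below the level 7 and those not listed 5, with overlapping points, and the germline-restricted genes all lie below the dashed line at 21, the median of all expressed genes with an entry. The dotted line at 11 is that of all listed genes below the level. MAGEA3 and MAGEA6 have the same 250 bases and are counted for each gene.

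Partners of the MAGE proteins were mostly expressed. Of the 21 fixed ligase partners and substrates 19 passed the level, against 66.7% of all listed genes and 72.8% of listed protein-coding genes. The list was led by TRIM28, the ligase bound by MAGEA3, MAGEA6 and MAGEC2, at 58.3 ± 2.96 RPKM (SD, n = 2). HUWE1 followed at 37.6 ± 1.00 and SKP2 at 34.4 ± 0.528. TRIM27, the partner of MAGEL2, was at 11.4 ± 0.135, its deubiquitinase USP7 at 27.5 ± 0.127, and PJA1, which binds MAGED1, at 18.3 ± 0.625 RPKM. NSMCE3, itself a MAGE protein under another name and part of the SMC5/6 complex, was at 6.74 ± 0.660 and NSMCE1 at 4.61 ± 0.124. PRKAA1, the AMPK subunit degraded through MAGEA3 and MAGEA6, was at 24.8 ± 0.617. TRIM31, reported to bind MAGEA1, had 4 reads in each library, and WASHC1, a gene with several close copies, was at 0.642 ± 0.0304 RPKM.

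A list of genes that set, read or remove DNA methylation or silence cancer-testis genes had 24 listed members. Of these 23 were expressed, against 66.7% of all listed genes and 72.8% of listed protein-coding genes. The 23 include TET1, TET2 and TET3, which oxidise methylated cytosine, and the insulator gene CTCF. The list was led by HDAC1 at 38.0 ± 1.28 RPKM, KDM1A at 28.9 ± 0.0822 and the maintenance methyltransferase gene DNMT1 at 28.2 ± 0.394. UHRF1, which guides DNMT1, was at 12.2 ± 0.931, DNMT3B at 11.98 ± 0.646 and DNMT3A at 3.57 ± 0.216. CTCFL, the testis paralog of CTCF that has been proposed to activate MAGE genes, had 3 reads in each library, against 13.6 ± 0.0239 RPKM for CTCF. DNMT3L was not listed.

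Class I antigen presentation, by which MAGE peptides reach T cells, was expressed in all 17 listed genes, against 72.8% of listed protein-coding genes. B2M was at 113 ± 1.42 RPKM, HLA-C at 73.2 ± 4.36 and HLA-B at 58.4 ± 0.212. The chaperone genes CALR at 439 ± 15.7 and CANX at 146 ± 0.286 led the list, and the class I activators NLRC5 at 1.93 ± 0.0219 and IRF1 at 1.63 ± 0.0788 were low in it. Of the 19 genes that work with PRAME or SSX proteins 18 were expressed, against the same 72.8%. They were led by ELOB at 86.4 ± 6.87, KLHDC3 at 71.9 ± 1.01 and RING1 at 40.5 ± 1.404. CUL2 was at 15.0 ± 0.262 and SS18, the fusion partner of SSX genes in synovial sarcoma, at 13.9 ± 0.349. RARB, a retinoic acid receptor gene, was at 0.381 ± 0.0686 RPKM.

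Of 44 other cancer-testis genes outside the symbol rule 24 were listed and 17 expressed (70.8% of those listed). This was near the 66.7% of all listed genes and the 72.8% of listed protein-coding genes, and it leaves out the 20 genes that were not listed. The highest were CEP55 at 77.4 ± 2.85, ATAD2 at 75.3 ± 0.584 and PBK at 64.4 ± 0.208 RPKM, genes with known roles in division and replication of somatic cells. Among X-linked testis genes, SPANXB1 was at 21.0 ± 2.43, SAGE1 at 9.29 ± 0.469, CT83 at 6.33 ± 1.18 and CT45A1 at 5.26 ± 0.144 RPKM. SYCP3 with 4 reads in each library, PIWIL1 with 5 and 2, PIWIL2 with 16 and 16, TEX14 with 15 and 14 and ACRBP with 29 and 29 were below the level. The meiosis gene HORMAD1 was at 3.24 ± 0.0308 RPKM. SPANX, CT45 and CSAG genes have close copies, and their levels are uncertain in the same way as those of MAGEA3 and MAGEA6.

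**Figure D5:**
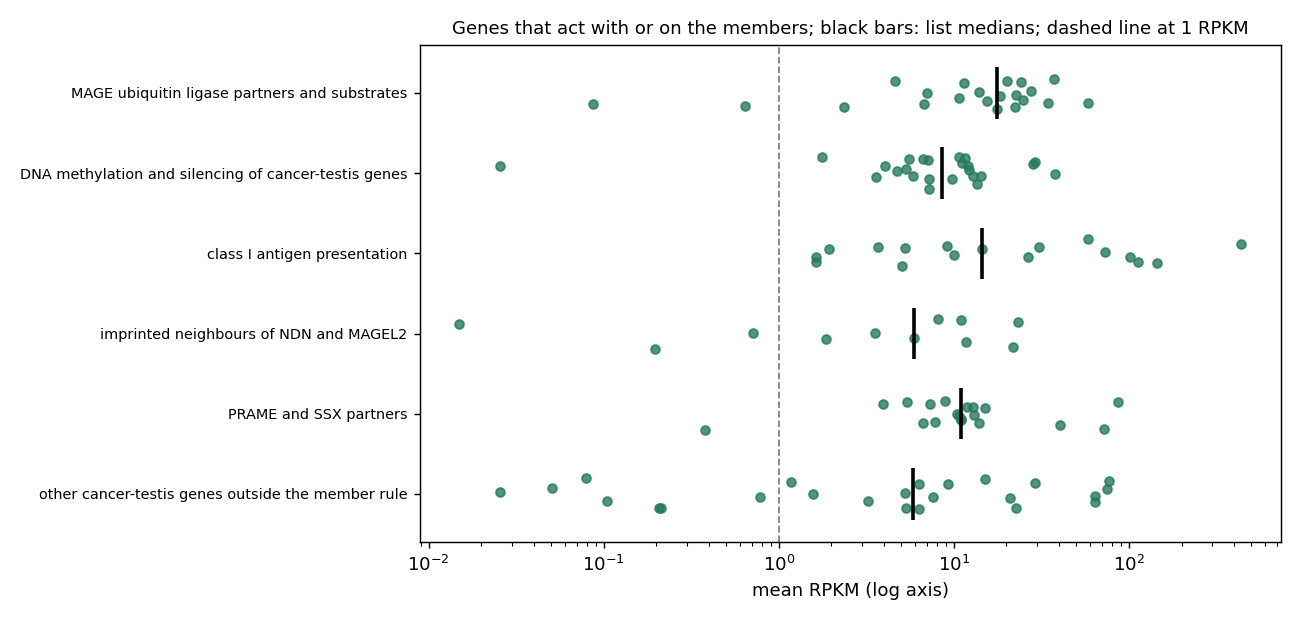
Mean RPKM (log axis) of the listed genes of the 6 context lists, 1 point a gene, with list medians as black bars. All 17 antigen presentation genes lie to the right of the dashed line at 1 RPKM, and the list of other cancer-testis genes has the most points, 7, to its left.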

How the data were processed

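Polyadenylated RNA of 2 libraries of 1 group was analysed. The authors' deposited values are RPKM per gene, 1 column per library, per the file headers. Trim Galore, HISAT2 and featureCounts with hg38 and GRCh38.p13 are named in the submitters' processing notes. The sources used here give no versions and no annotation, strand setting or treatment of multi-mapping reads.

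The table had 18277 rows. Its 58 symbols with several rows were left out, and values shared by several symbols were taken once, which left 17912 entries. Reads were recovered from the ratio of the columns, which was a ratio of whole numbers for 100% of symbols (relative tolerance 2e-13). The length factor was set nearest to exonic lengths of GENCODE release 29, matched for 94.7% of symbols. Recovered lengths equalled GENCODE's for 43.8% and were within 10% for 91.2%, so reads of some other genes may be scaled wrongly. The whole-read recovery and the binomial test were tested on simulated data.

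Expressed means at least 1 RPKM in both libraries. Levels are means ± SD (n = 2), and class medians use log2(RPKM + 1), a pseudocount of 1. The libraries were compared with an exact binomial test, trimmed mean of M values scaling (factor 0.995) and Benjamini-Hochberg adjustment at 0.05 over 17911 entries with recovered reads. Intervals and errors of reads cover counting only. Windows of 50 bases were compared across GENCODE transcripts. Values are named for every member at 1 RPKM in either library and the highest 3 of each class, and for the highest 3 and all genes below the level of each context list. The other context genes were named after their values were seen. Members and lists were chosen with earlier results of these data known. Classes were described with counts and medians. Alternatives covered the level, the pseudocount, CPM, each library alone, shared values, copies and genes not listed. Scripts ran in Python 3.11.15 with pandas 2.3.3, scipy 1.17.1 and numpy 2.4.6.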

Additional observations from a re-analysis of the deposited data

How the results depend on the processing

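The counts of expressed genes in the 3 classes and in the context lists stayed within 1.5 times under all alternatives run: 9 to 11 germline-restricted, 7 to 9 broadly expressed and 4 to 7 other cancer-testis genes, and 83 to 106 of 113 context genes. Counting annotated genes not listed as below the level cannot change the class counts, by construction. The difference in class medians (-0.14, germline-restricted minus broadly expressed) reversed to 0.66 with log2(CPM + 1) and to 0.14 without members under 0.1 RPKM. It was -1.13 without tissue-restricted genes of the broad class (MAGEL2, NDN, MAGEE2, MAGED4 and MAGED4B) and -3.73 with annotated genes not listed taken as 0, by construction, and between -0.18 and -0.12 with each replicate left out. With 0.01 as the limit on the adjusted p, 1 member in place of 2 was called between the libraries. For the reversed values the cause was not tested. Leaving out copies by protein identity was not run, and copies by transcript windows, chosen after seeing the data, took its place. No paired analysis was possible because the series has 1 group. Depth limits the 11 members with under 10 reads in both libraries.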
